A study of Mus musculus with 12 samples.

Results

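Cysteine that is not built into protein or glutathione follows a small number of routes, and 7 genes of these routes, Cdo1, Csad, Cth, Cbs, Mpst, Suox and Slc6a6, were followed here through early adipogenesis of 3T3-L1 cells with and without knockdown of PRMT1. They were chosen by their function, with their levels in these libraries already known, and each of the 7 matched 1 of the 39423 genes in the deposited tables by its symbol. Because of that choice, their levels and differences are given as a description and no p-value is printed for them.

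Mammalian cells make cysteine from methionine by transsulfuration, in which cystathionine beta-synthase (Cbs) joins homocysteine to serine and cystathionine gamma-lyase (Cth) releases cysteine from the product. Cysteine dioxygenase (Cdo1) oxidises cysteine to cysteine sulfinate, which cysteine sulfinate decarboxylase (Csad) turns into hypotaurine, the precursor of taurine, and the transporter encoded by Slc6a6 brings taurine in from outside. The other fates run through mercaptopyruvate, whose sulfur is passed on by mercaptopyruvate sulfurtransferase (Mpst), and through sulfite, which sulfite oxidase (Suox) turns into sulfate. White fat is one of the tissues in which Cdo1 and Csad are well expressed, and taurine serves cells as an osmolyte and as a conjugate.

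3T3-L1 cells, a mouse preadipocyte line, received control siRNA (siCtrl) or siRNA against PRMT1, the main enzyme of asymmetric arginine dimethylation (siPRMT1). All cells were then induced to become adipocytes with DMI (MDI in the labels), in which a glucocorticoid (dexamethasone), a phosphodiesterase inhibitor (3-isobutyl-1-methylxanthine) and insulin act together, and RNA was sequenced after 24 h, the stage of mitotic clonal expansion, or after 72 h, the stage of differentiation. With 3 libraries in each of the 4 conditions there were 12 libraries, and none came from cells without DMI. The cells are 1 established line, the knockdown is transient, and which of the PRMT1 siRNAs was sequenced is not given in the sources used here.

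The libraries held from 15116462 to 42357137 counts on genes, so a count of 0 allows from 0.0708 to 0.198 CPM (3 counts per library scaled by its total, counting error only). Prmt1 itself had FPKM (counts divided by gene length and library total) of 82.9, 83.4 and 91.3 in the siCtrl libraries of 24 h against 43.8, 38.6 and 41.4 in the siPRMT1 libraries. After 72 h the siCtrl libraries held it at 111, 120 and 140 and the siPRMT1 libraries at 62.0, 71.7 and 68.5, so the knockdown was present at both times and was incomplete. The third siCtrl library of 24 h stood apart from its replicates, with a chi-square per gene of 50.6 and 30.8 against them, where the other 10 pairs of replicates lay between 4.14 and 15.8. The summed FPKM of 7 adipocyte markers ran from 144 to 149 in siCtrl and from 109 to 123 in siPRMT1 cells at 24 h, and from 2180 to 2371 and from 1691 to 1896 at 72 h. Those of 7 preadipocyte and fibroblast markers ran from 1519 to 1677 and from 1440 to 1538 at 24 h, and from 704 to 753 and from 874 to 990 at 72 h. Of the markers of other cell types, those of epithelium, muscle and hepatocytes stayed at or under 0.05 FPKM in every library and those of endothelium at or under 0.57. Among the 4 leukocyte and macrophage markers Ptprc had 0 counts in all 12 libraries, Adgre1 at most 1, Csf1r reached 0.37 FPKM and Cd68 2.35, and their sum ran from 1.36 to 1.49 in siCtrl and from 1.90 to 2.37 in siPRMT1 cells at 24 h, and from 2.20 to 2.40 and from 2.13 to 2.28 at 72 h. The endothelial sum ran from 0.11 to 0.21 FPKM at 24 h, and from 0.75 to 0.87 with siCtrl and from 0.49 to 0.56 with siPRMT1 at 72 h. These sums moved with time or with knockdown, and their part in the results was not tested. In bulk RNA, fewer cells that express a gene and less RNA per cell cannot be told apart.

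The 300 bases around the start sites of Csad and Mpst are shown because these genes were called lower under knockdown, Csad at 24 h and Mpst at 72 h. Of the 3 start sites listed for Mpst, the second is shown because its window holds the motif match given below. RefSeq (GRCm38.p6) gives Csad, on the minus strand of chromosome 15, start sites 16009 bases apart, which counts per gene do not separate. The sequences run from 250 bases before to 50 bases after each start, and capitals mark a match to a motif searched.
Csad, upstream start (chr15:102205003-102205302, minus strand): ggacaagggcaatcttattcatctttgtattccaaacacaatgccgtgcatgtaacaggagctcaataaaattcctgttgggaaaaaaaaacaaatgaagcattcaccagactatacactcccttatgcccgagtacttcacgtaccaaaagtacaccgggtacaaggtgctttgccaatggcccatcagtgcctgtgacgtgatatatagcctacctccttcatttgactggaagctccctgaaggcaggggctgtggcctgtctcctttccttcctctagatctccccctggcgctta
Csad, downstream start (chr15:102188994-102189293, minus strand): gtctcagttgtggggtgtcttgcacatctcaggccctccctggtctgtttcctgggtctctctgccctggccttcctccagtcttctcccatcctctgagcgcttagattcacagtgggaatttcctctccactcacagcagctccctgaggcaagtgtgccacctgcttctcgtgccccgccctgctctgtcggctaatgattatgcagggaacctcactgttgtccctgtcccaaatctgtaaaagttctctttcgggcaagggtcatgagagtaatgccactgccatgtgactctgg
Mpst, second of its listed starts (chr15:78406551-78406850, plus strand): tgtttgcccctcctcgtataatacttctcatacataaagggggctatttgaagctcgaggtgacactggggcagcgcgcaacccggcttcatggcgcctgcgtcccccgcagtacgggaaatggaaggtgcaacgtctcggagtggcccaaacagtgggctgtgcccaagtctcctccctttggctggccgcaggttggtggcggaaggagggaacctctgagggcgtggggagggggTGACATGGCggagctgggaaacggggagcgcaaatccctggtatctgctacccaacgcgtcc
In all, 4 motifs were searched on both strands, namely the cores of the amino acid response element TGATGNAA, of the C/EBP site TTGCNNAA and of the antioxidant response element TGACNNNGC, and the cAMP response element TGACGTCA. They occur in 3.97%, 10.8%, 12.4% and 1.79% of the 32851 RefSeq promoters of this length. The promoters of 4 of the 7 genes (Csad, Mpst, Suox and Cbs) were searched. Cdo1, called lower as well, was left out of the search, and no promoter was listed for Cth and Slc6a6. The capitals in the Mpst sequence, the letters TGACATGGC from 12 to 4 bases before the start, were the 1 match among the promoters searched. A match is a description of letters and does not mark a bound site. The GC content of these windows was 47.3% and 55.3% for Csad, between 54.7% and 61.3% for the windows of Mpst and 73.3% for Suox, against a median of 52.7% over all promoters.

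Compared per length, Slc6a6 had the highest level of the 7 genes in 3 of the 4 conditions, with a mean of 90.2 FPKM in siCtrl cells at 24 h, above 93.1% of the 10954 genes with at least 1 FPKM there. In the same cells Cth (33.9 ± 1.53 FPKM, SD, n = 3) and Mpst (31.2 ± 7.26) followed within each other's spread, then Cdo1 (25.8 ± 1.18), then Csad (19.3 ± 2.17) and Suox (17.8 ± 1.69), again within each other's spread. In siCtrl cells at 72 h Mpst (69.1 ± 7.22 FPKM) and Slc6a6 (64.1 ± 0.409) shared the top within their spread. Cth stood next at 47.4 ± 3.92 FPKM, Csad and Cdo1 lay at 24.3 ± 0.397 and 23.5 ± 0.785, and Suox lay at 16.5 ± 0.603. Summed, the 6 expressed genes reached 218 ± 14.8 FPKM (siCtrl) against 188 ± 2.44 (siPRMT1) at 24 h, then 245 ± 3.82 against 228 ± 11.6 at 72 h. Slc6a6 made up 41.4%, 36.0%, 26.2% and 32.0% of these sums in that order.

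**Figure D1:**
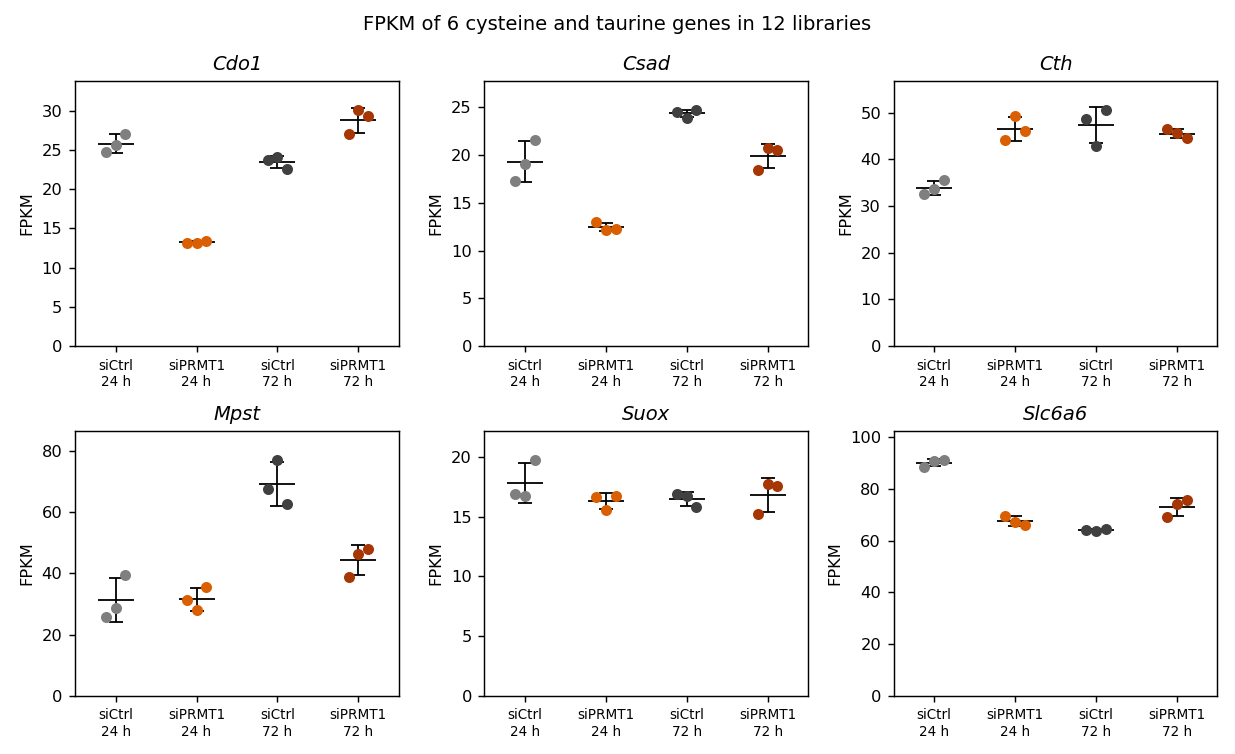
FPKM of 6 genes in each of 12 libraries (points, vertical axes start at 0), with the mean and SD of 3 libraries per condition as a line and bars. The 3 siPRMT1 libraries of 24 h lie at 13.1 to 13.4 FPKM for Cdo1, below every other condition, while the siCtrl libraries of 72 h stand highest for Mpst, at 62.8 to 77.0.

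At 24 h Cdo1 and Csad, the consecutive enzymes on the way from cysteine to hypotaurine, were lower under knockdown. A gene was called when its adjusted p in edgeR's quasi-likelihood test over all genes was under 0.05 and its absolute log2 fold change over 0.5. On these terms Cdo1 and Csad were 2 of 6 tested genes called lower in siPRMT1 cells and 0 were called higher, where 1.61% of the 13689 genes tested were called lower and 1.95% higher. With no threshold on the fold change, Cth and Slc6a6 passed as well, which makes 4 of 6, against 7.6% of all genes tested. In CPM scaled by the TMM method, the 3 siPRMT1 and the 3 siCtrl libraries did not overlap for 5 of the 6, beside 31.2% of all genes tested. The median log2 fold change of the 6 was -0.32, beside 0.01 over all genes tested. DESeq2 called the same 2 genes. The shares of all genes given here are edgeR's, and the paper, with DESeq2, reported more called genes at 24 h. These counts describe genes chosen with these values known.

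At 72 h the call fell on another gene. Mpst was the 1 of 6 tested genes called lower and 0 were called higher, where edgeR called 3.8% of the 14039 genes tested lower and 2.84% higher. DESeq2 called Mpst alone as well, and its share of all genes is not given here. With no threshold on the fold change Cdo1 and Csad passed too, which makes 3 of 6, against 16.5% of all genes tested. The groups did not overlap for 4 of the 6, beside 34.9% of all genes, with Cdo1 and Slc6a6 higher and Csad and Mpst lower in siPRMT1 cells. The median log2 fold change of the 6 was -0.02, beside 0.01 over all genes tested.

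**Figure D2:**
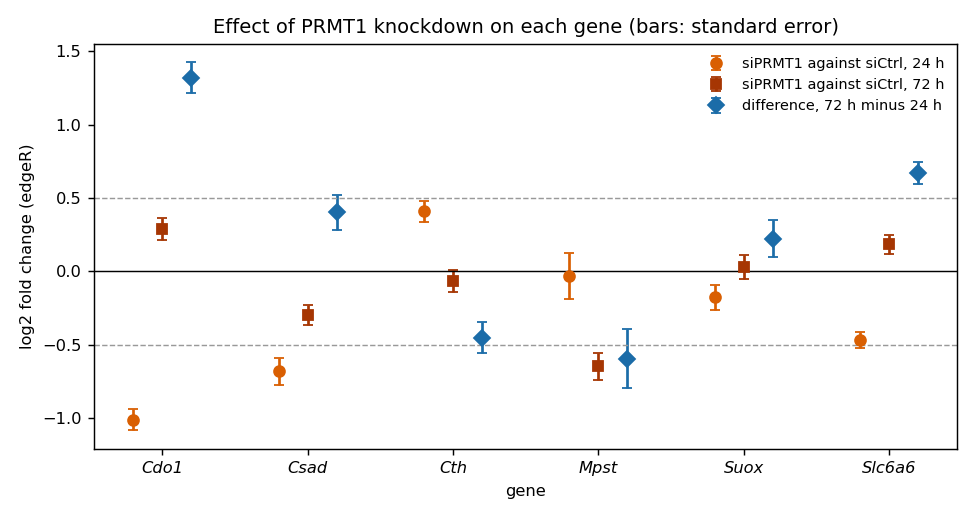
Log2 fold change of siPRMT1 against siCtrl at 24 h (circles) and 72 h (squares), and the difference of the effects at 72 h and 24 h (diamonds), from edgeR, with bars for 1 standard error; dashed lines mark the threshold of 0.5 in either direction. Cdo1 goes from -1.01 to 0.29 and Slc6a6 from -0.47 to 0.18, while Csad lies below 0 at both times, at -0.68 and -0.30.

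Cdo1, the enzyme that commits cysteine to oxidation, lies on the minus strand of chromosome 18 of GRCm38 from 46713193 to 46728502. The siCtrl libraries of 24 h held it at 24.7, 25.6 and 27.0 FPKM, against 13.1, 13.2 and 13.4 with siPRMT1. Every siPRMT1 library was thus far below every siCtrl library, at 51.4% of the siCtrl mean, and the log2 fold change was -1.01 (standard error 0.0725). By 72 h the siCtrl libraries stood at 23.7, 24.1 and 22.6 FPKM, against 27.0, 30.01 and 29.4 with siPRMT1. Here every siPRMT1 library was above every siCtrl library, with a log2 fold change of 0.29 (0.0764), which passed the adjusted p and stayed under the threshold on the fold change. Between 24 h and 72 h, Cdo1 differed by -0.20 (0.0897) on the log2 scale in siCtrl cells, without a call, and was called higher with siPRMT1 at 1.108 (0.0683). In the model of all 12 libraries the knockdown effect at 72 h exceeded that at 24 h by 1.32 (0.103) on the log2 scale, and this difference was called. Without the third siCtrl library of 24 h it was 1.25, and the fold change at 24 h was -0.98.

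Csad, which makes hypotaurine from the product of Cdo1, lies on chromosome 15 from 102176997 to 102205052, with the start sites shown above. The siCtrl libraries of 24 h held it at 17.3, 19.0 and 21.6 FPKM, against 13.0, 12.2 and 12.2 with siPRMT1. Again no siPRMT1 library reached the siCtrl libraries, at 64.5% of their mean and a log2 fold change of -0.68 (0.0901). The call was lost without the third siPRMT1 library of 24 h, where the fold change was -0.67, and it was kept without the third siCtrl library, at -0.60. The libraries of 72 h held 24.5, 23.9 and 24.7 FPKM with siCtrl, against 18.4, 20.7 and 20.5 with siPRMT1. The siPRMT1 libraries stayed below the siCtrl libraries, unlike those of Cdo1, and the log2 fold change of -0.30 (0.0689) passed the adjusted p and not the threshold on the fold change. Over time Csad had a log2 fold change of 0.27 (0.0979) in siCtrl cells, under the threshold, and was called higher in siPRMT1 cells at 0.66 (0.0646). The difference between the knockdown effects was 0.40 (0.118), under the threshold.

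Csad shares 999 exon bases, 22.5% of its exons, with Zfp740 on the opposite strand, and since the strand setting of the counting is not given in the sources used here, reads in the shared bases cannot be told apart. Zfp740 lay at 35.8 ± 1.84 FPKM with siCtrl and 38.8 ± 0.581 with siPRMT1 at 24 h (SD, n = 3), then at 35.2 ± 1.76 and 35.9 ± 0.668 at 72 h. Its log2 fold change under knockdown was 0.06 (0.0634) at 24 h and 0.02 (0.0659) at 72 h, not called at either time (edgeR adjusted p = 0.591 and 0.855).

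The ratio of the first to the second enzyme of the taurine route lay on opposite sides of the siCtrl libraries at the 2 times. The FPKM of Cdo1 over that of Csad was 1.43, 1.34 and 1.25 with siCtrl, against 1.01, 1.08 and 1.10 with siPRMT1, in the libraries of 24 h. In those of 72 h the ratio stood at 0.969, 1.01 and 0.916 with siCtrl, against 1.47, 1.45 and 1.43 with siPRMT1. The knockdown libraries had the lower ratio at 24 h and the higher one at 72 h, with no overlap at either time, and these ratios are within a library, so the scaling of libraries does not enter them.

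**Figure D3:**
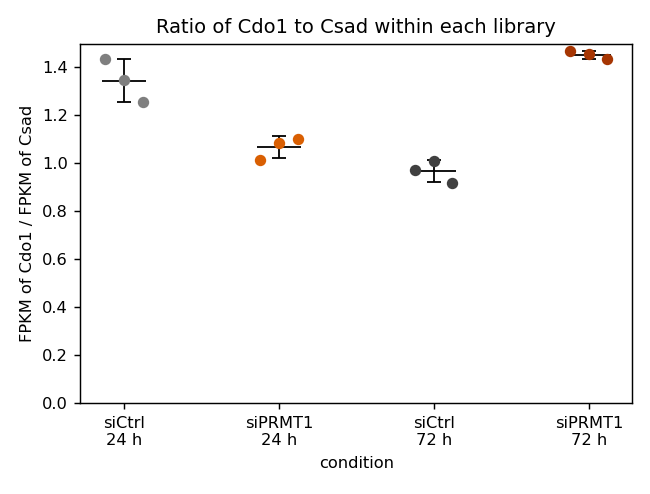
FPKM of Cdo1 divided by FPKM of Csad within each of the 12 libraries (points), with the mean and SD of 3 libraries per condition as a line and bars; the vertical axis starts at 0. The mean ratio is 1.34 and 1.06 in siCtrl and siPRMT1 cells at 24 h and 0.965 and 1.45 at 72 h.

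Slc6a6, the sodium- and chloride-dependent taurine transporter, lies on the plus strand of chromosome 6 from 91684048 to 91759063 and carried the most counts of the 7 genes. The siCtrl libraries of 24 h held it at 88.6, 90.8 and 91.2 FPKM, against 69.6, 67.1 and 66.1 with siPRMT1. The groups were well apart, and the log2 fold change of -0.47 (0.0529) passed the adjusted p and fell short of the threshold on the fold change. Without the first siPRMT1 library it was -0.51, past that threshold, and without the third siCtrl library it was -0.47. Among the 72 h libraries those with siCtrl stood at 64.2, 63.7 and 64.5 FPKM, against 69.2, 74.2 and 75.9 with siPRMT1, so the order of the groups was the opposite one, with a log2 fold change of 0.18 (0.0652) that was not called. In siCtrl cells Slc6a6 was called lower at 72 h than at 24 h, by a log2 fold change of -0.56 (0.0640). In siPRMT1 cells, which were already low at 24 h, it differed by 0.10 (0.0557) and was not called. The knockdown effect at 72 h exceeded that at 24 h by 0.67 (0.0775), which was called, and by 0.63 without the third siCtrl library of 24 h.

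On the supply side, Cth lies on the minus strand of chromosome 3 from 157894248 to 157925081. The siCtrl libraries of 24 h held it at 32.5, 33.7 and 35.6 FPKM, against 44.3, 49.4 and 46.1 with siPRMT1. All siPRMT1 libraries were above all siCtrl libraries, and the log2 fold change of 0.41 (0.0733) passed the adjusted p and not the threshold on the fold change. By 72 h the siCtrl libraries stood at 48.7, 43.0 and 50.5 FPKM, against 46.5, 45.6 and 44.5 with siPRMT1, where the groups overlapped and the log2 fold change was -0.06 (0.0734). In siCtrl cells Cth differed by 0.41 (0.0917) between the times, under the threshold, and in siPRMT1 cells, which stood at the later level from 24 h on, by -0.05 (0.0623). The difference between the knockdown effects was -0.45 (0.106), also under the threshold. It was called at -0.52 without the third siCtrl library of 24 h and at -0.51 without the second siCtrl library of 72 h.

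Cbs, the first enzyme of transsulfuration, lies on the minus strand of chromosome 17 from 31612623 to 31637233 and had between 0 and 9 counts per library, at most 0.13 FPKM. It passed the filter on low counts in no comparison, so 6 of the 7 genes were tested throughout. Its counts were 2, 3 and 1 with siCtrl and 1, 0 and 2 with siPRMT1 at 24 h, and 6, 2 and 6 and 5, 9 and 5 at 72 h. The knockdown and control libraries overlapped at both times, while the siPRMT1 libraries of 72 h lay above those of 24 h, at levels too low to be tested.

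Mpst, on the plus strand of chromosome 15 from 78406712 to 78414015, was called lower with siPRMT1 at 72 h and not at 24 h. The siCtrl libraries of 24 h held it at 25.6, 28.6 and 39.4 FPKM, against 31.2, 27.9 and 35.5 with siPRMT1. The groups overlapped, and the log2 fold change was -0.03 (0.156), and 0.16 without the third siCtrl library. The libraries of 72 h held 67.7, 77.0 and 62.8 FPKM with siCtrl, against 38.7, 46.3 and 47.8 with siPRMT1. Every siPRMT1 library was below every siCtrl library, with a log2 fold change of -0.65 (0.0925), which was called. Over time Mpst was called higher in siCtrl cells, at 1.08 (0.157), and differed by 0.48 (0.0903) in siPRMT1 cells, which passed the adjusted p and not the threshold on the fold change. The latter reached 0.56 and a call without the third siPRMT1 library of 24 h or the first of 72 h. The difference between the knockdown effects was -0.59 (0.203) and was not called. DESeq2 called it, and so did edgeR without the third siCtrl library of 24 h, the highest of its group, at -0.83.

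Suox, on the minus strand of chromosome 10 from 128669887 to 128673918, had the narrowest range of condition means among the 6 tested genes, 16.3 to 17.8 FPKM. With siCtrl it stood at 16.9, 16.7 and 19.7 FPKM at 24 h, against 16.7, 15.5 and 16.7 with siPRMT1, and at 72 h at 16.9, 16.7 and 15.8, against 15.2, 17.7 and 17.6. The groups met or overlapped in FPKM at both times, and in TMM-scaled CPM they overlapped at 72 h and not at 24 h. Its log2 fold change was -0.18 (0.0856) at 24 h and 0.03 (0.0825) at 72 h, and it was called in no comparison.

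Over the 72 h course, siCtrl cells had 1 of the 6 tested genes called higher (Mpst) and 1 called lower (Slc6a6), where 22.7% and 20.4% of all 13829 genes tested were called. The siPRMT1 cells had 2 called higher (Cdo1 and Csad) and 0 lower, where 19% and 17.4% of 14224 genes were called. With no threshold on the fold change, 4 of 6 passed in siCtrl cells, against 58.9% of all genes tested, and 3 of 6 in siPRMT1 cells, against 63.4%. For the difference between the knockdown effects, 2 of 6 were called higher (Cdo1 and Slc6a6) and 0 lower, where 4.77% and 3.47% of 14612 genes were called. Without the threshold 4 of 6 passed there, against 12.3% of all genes. The comparisons share libraries, so a library that is high in one of them enters another as well.

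The genes whose course over the 12 libraries was most like that of Cdo1, by Pearson's r of log2 CPM over the 12464 genes that averaged 1 CPM or more, were Sepp1 (r = 0.964), Ccdc93 (0.955) and D830050J10Rik (0.945). The 12 points share 4 conditions and the scaling of their libraries. Sepp1, which encodes the secreted selenium carrier selenoprotein P, had log2 fold changes of -0.38 (0.0596) at 24 h and 0.13 (0.0666) at 72 h, a smaller swing than that of Cdo1. Those of Ccdc93 were smaller still, at -0.14 (0.0675) and 0.05 (0.0671), and were called at neither time. D830050J10Rik, at no more than 1.6 FPKM in any library, had -0.96 (0.200) and 0.23 (0.150).

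The 66 other genes around the pathway come from 7 lists, written by hand with earlier results of these data known. They put these values in context, and their counts and p-values are a description. At 24 h, edgeR called 2 of the 50 tested higher and 0 lower, beside 1.95% and 1.61% of all genes tested. Of the 50, 14 had an unadjusted p under 0.05, against 24.6% of all genes. DESeq2 called the same 2 higher and Slc5a3 lower, while the shares of all genes are edgeR's. Chac1, which breaks down glutathione, rose from 7.79, 6.87 and 8.93 FPKM with siCtrl to 18.0, 19.9 and 19.9 with siPRMT1, with a log2 fold change of 1.24 (0.108, edgeR adjusted p = 0.00225). Slc1a4, a transporter of small neutral amino acids that also takes cysteine, rose by 0.57 (0.0904, edgeR adjusted p = 0.0115), a call that was lost in 4 of the 6 fits that leave out a library. Neither gene stands on the taurine list, of which 4 of 12 genes were tested at 24 h and 0 called by edgeR, with 2 at an unadjusted p under 0.05 and 3 of the 4 at a positive fold change (Ado 0.45, Got1 0.23 and Got2 0.08). The median of all 50 was -0.06, beside 0.01 over all genes tested.

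At 72 h, edgeR called 0 of 53 other genes tested higher and 6 lower, beside 2.84% and 3.8% of all genes tested. DESeq2 called 0 and 5, and its share of all genes is not given here. Of the 53, 22 had an unadjusted edgeR p under 0.05, against 31.3% of all genes, and their median was -0.08 beside 0.01 over all genes tested. The sulfide and persulfide list held 3 of the 6, among its 10 tested genes, and its median was -0.21. Tst, the rhodanese, a sulfurtransferase like Mpst, stood at 22.3, 24.0 and 26.2 FPKM with siCtrl and at 11.4, 12.4 and 12.5 with siPRMT1. The log2 fold change was -1.002 (0.0946, edgeR adjusted p = 7.29e-06), with no overlap of the groups. Selenbp1, a methanethiol oxidase, fell by 1.31 (0.173, edgeR adjusted p = 0.000113) from a low level, 2.11 to 0.847 FPKM. Kyat1, a transaminase that can also cleave cysteine conjugates, fell by 0.56 (0.0986, edgeR adjusted p = 0.00123).

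Of the remaining 3, Coasy, the last enzyme of coenzyme A synthesis, fell by 0.60 on the log2 scale (0.0731, edgeR adjusted p = 5.08e-05), from 29.7 to 19.7 FPKM. Chac1 fell by 0.65 (0.0827, edgeR adjusted p = 7.58e-05), the opposite direction to 24 h. Mocos, which activates molybdenum enzymes other than sulfite oxidase, fell by 1.24 (0.405, edgeR adjusted p = 0.0484). Its call was lost with DESeq2, in the model of all 12 libraries and in 5 of the 6 fits that leave out a library.

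**Figure D4:**
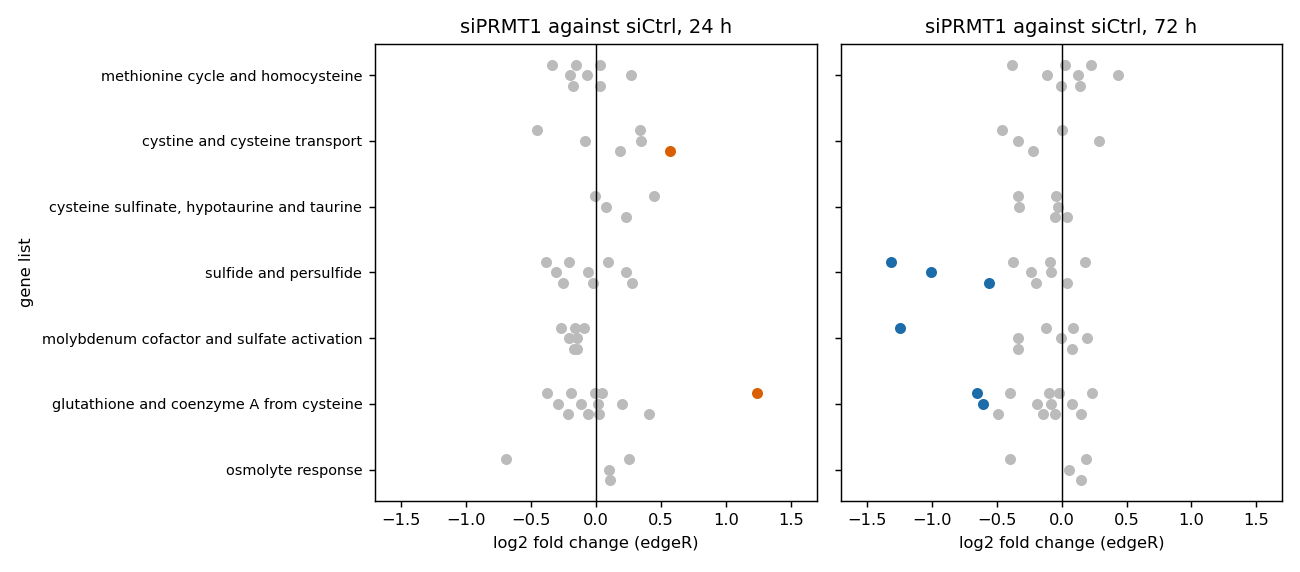
Log2 fold change of siPRMT1 against siCtrl for the other genes of 7 lists, 1 point a gene and 1 row a list, at 24 h (left) and 72 h (right); orange points were called higher, blue points lower and grey points were not called. At 24 h 2 points are called, both higher, and at 72 h 6 are, all lower, 3 of them in the sulfide and persulfide row; the vertical shift within a row only separates points.

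Mpst and Tst are neighbours on chromosome 15, on opposite strands with their first bases 853 bases apart in the count table. Both were called higher over time in siCtrl cells, at 1.08 for Mpst and 2.04 for Tst (0.153, edgeR adjusted p = 2.3e-06). Tst was also called higher in siPRMT1 cells, at 1.43 (0.101, edgeR adjusted p = 3e-08). At 24 h Tst had a log2 fold change under knockdown of -0.38 (0.157, edgeR adjusted p = 0.179). The difference between its knockdown effects was -0.60 (0.185, edgeR adjusted p = 0.0467), and that call was lost in 10 of the 12 fits that leave out a library.

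**Figure D5:**
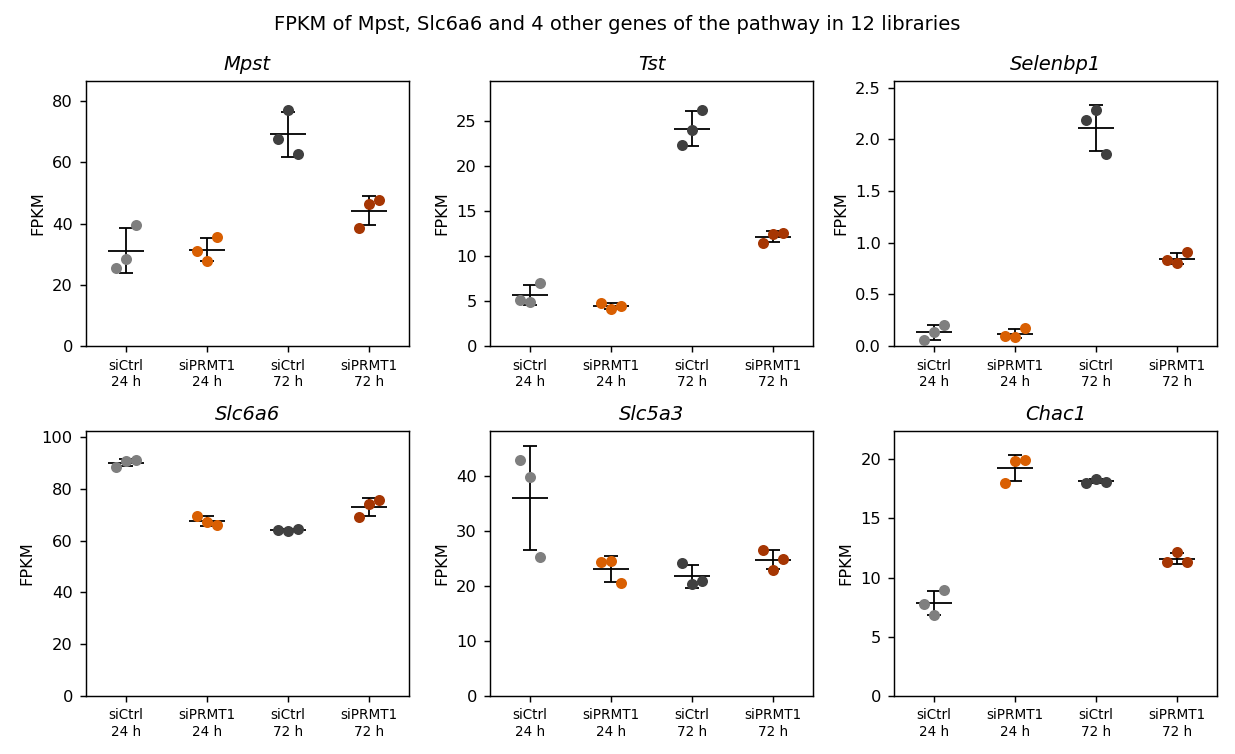
FPKM of Mpst, Tst, Selenbp1, Slc6a6, Slc5a3 and Chac1 in each of 12 libraries (points, vertical axes start at 0), with the mean and SD of 3 libraries per condition as a line and bars. Mpst, Tst and Selenbp1 stand highest in siCtrl cells at 72 h, and Slc6a6 and Slc5a3 have their highest libraries in siCtrl cells at 24 h.

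Slc5a3, which imports myo-inositol, is an osmolyte transporter like Slc6a6 and stands on the list of 5 osmolyte genes. The siCtrl libraries of 24 h held it at 42.9, 39.8 and 25.2 FPKM, against 24.4, 24.6 and 20.5 with siPRMT1, with a log2 fold change of -0.69 (0.186) that was not called (edgeR adjusted p = 0.0605). DESeq2 called it lower, as did edgeR without the third siCtrl library, the lowest of its group. In siCtrl cells it fell by 0.80 on the log2 scale from 24 h to 72 h (0.167, edgeR adjusted p = 0.00227), and in siPRMT1 cells it differed by 0.09 (0.0811, edgeR adjusted p = 0.362). The difference between the knockdown effects was 0.89 (0.206, edgeR adjusted p = 0.0116), the 1 of 54 other genes called higher in that comparison, where 4.77% of all genes were. Nfat5, the factor that switches on osmolyte transporters, fell over time in siCtrl (-0.88, edgeR adjusted p = 0.00241) and siPRMT1 cells (by -0.83, edgeR adjusted p = 5.57e-07). Akr1b3 of the same list went the other way, called higher in siCtrl (0.59, edgeR adjusted p = 0.000165) and siPRMT1 cells (0.55, edgeR adjusted p = 7.08e-07). Over time, 1 of the 4 osmolyte genes tested was called higher and 2 lower with either siRNA. Under knockdown edgeR called 0 of the 4 osmolyte genes tested at either time, with 1 at an unadjusted p under 0.05 each time.

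Called lower for the difference between the knockdown effects were 5 of 54 other genes, beside 3.47% of all genes tested. Chac1 led them at -1.88 (0.135, edgeR adjusted p = 3.33e-06). The remaining 4 were Slc3a2, the heavy chain of the cystine carrier, at -0.54 (0.101, edgeR adjusted p = 0.00341), Pank1 of coenzyme A synthesis at -0.57 (0.149, edgeR adjusted p = 0.022), Slc1a4 at -0.55 (0.137, edgeR adjusted p = 0.0182) and Tst.

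From 24 h to 72 h, 20 of 54 other genes tested rose and 7 fell in siCtrl cells, where 22.7% and 20.4% of all genes did. In siPRMT1 cells 15 of 51 rose and 8 fell, where 19% and 17.4% of all genes did. The glutathione and coenzyme A list had 8 of 13 called higher in siCtrl and 5 of 13 in siPRMT1 cells, among them Gclm, the modifier subunit of glutamate-cysteine ligase (edgeR log2 fold changes of 1.117 and 1.058). The catalytic subunit Gclc went the other way, at -1.29 in siCtrl (edgeR adjusted p = 7.82e-07) and -1.61 with siPRMT1 (1.33e-10). Of the taurine list, Fmo1, which can oxidise hypotaurine to taurine, rose by 3.20 in siCtrl (0.377, edgeR adjusted p = 5.11e-05) and 4.15 in siPRMT1 cells (0.305, edgeR adjusted p = 4.32e-08), and its highest library stood at 1.55 FPKM. Ado, which makes hypotaurine from cysteamine, rose by 0.66 in siCtrl cells (0.190, edgeR adjusted p = 0.0127), a call lost in 3 of the 6 fits that leave out a library. Pter of the same list was called lower, at -0.80 in siCtrl (0.0959, edgeR adjusted p = 5.71e-05) and -0.81 in siPRMT1 cells (0.0861, edgeR adjusted p = 1.8e-06). Mfsd12, which carries cysteine into lysosomes and melanosomes, rose by 1.90 and 1.66 (edgeR adjusted p = 1.08e-06 and 1.73e-09), and methionine synthase, Mtr, fell by 0.76 and 0.63 (7.83e-05 and 3.08e-06).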

How the data were processed

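Counts and FPKM of 12 3T3-L1 mRNA libraries (siCtrl and siPRMT1, 24 h and 72 h of DMI, 3 each) were used, grouped by the labels. Reads were trimmed by the authors (cutadapt 1.11) and aligned with HISAT2 2.1.0 to mouse reference transcripts (mm10 in the submitters' processing notes, which also list RSEM 1.2.6) and the deposited whole-number counts per gene are not normalized. The deposited FPKM are these counts divided by gene length and library total, since recomputed values differed by at most 0.005. The counting tool, its strand setting and its handling of reads that match several places are not given in the sources used here. Total counts ran from 15116462 to 42357137, and 26095 of 39423 genes had a count.

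Each comparison was fitted over all genes with edgeR 4.0.16 (R 4.3.3, quasi-likelihood test, TMM normalization, filterByExpr, Benjamini-Hochberg adjustment), and the difference between the knockdown effects came from a model of all 12 libraries. The standard error, in parentheses after a fold change, was obtained as that change's absolute value over the root of the F statistic. The method was tested on simulated counts in which only well-expressed genes changed. That simulation does not cover low counts, an outlying library or effects near the threshold on the fold change. The labels do not say that replicates are separate cultures, so p-values measure the spread between these libraries, which may be technical. Alternatives were DESeq2 1.42.0, RLE normalization, no filter, a minimum of 10 counts in each library, no threshold on the fold change, a single model of the 12 libraries, a replicate block, leaving out single libraries, and TMM-scaled counts in place of FPKM. Named are the 7 genes, Prmt1, the 3 genes most like Cdo1 and genes taken by a rule. The rule took, of each list and comparison, the up to 3 called genes with the smallest p. All of these are named for knockdown and its difference between the times, and only some for the comparisons over time. Tst, Slc5a3, Zfp740 and genes that complete small counts were added or followed through other comparisons after their values were seen. The 7 genes and all lists were chosen with earlier results of these data known. Positions and promoters come from RefSeq on GRCm38.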

Additional observations from a re-analysis of the deposited data

Results flagged for a closer look

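The difference of the knockdown effect between 24 h and 72 h was itself tested (edgeR's interaction term over 12 libraries, adjusted p under 0.05 and an absolute log2 difference over 0.5). Of all 14612 genes tested, 4.77% were called higher and 3.47% lower. Among the 6 tested of the 7 genes and the 54 other genes tested, 8 were called. Among the 7 genes chosen with these values known, given as a description, these were Cdo1, with 1.32 on the log2 scale, and Slc6a6, with 0.67, both lower under knockdown in 3 of 3 libraries at 24 h and higher in 3 of 3 at 72 h. Among the other genes, Slc5a3 had a difference of 0.89, Chac1 of -1.88, Tst of -0.60, Pank1 of -0.57, Slc1a4 of -0.55 and Slc3a2 of -0.54. Chac1, Slc1a4, Slc3a2 and Pank1 had a positive fold change at 24 h and Tst and Slc5a3 a negative one. At 72 h it was negative for Chac1, Slc3a2, Pank1 and Tst, positive for Slc5a3 and 0.00325 for Slc1a4. With 1 of the 12 libraries left out in turn, the call was lost in 10 of the 12 fits for Tst, 4 for Pank1, 3 for Slc1a4 and 1 each for Slc3a2 and Slc5a3. The calls of Slc3a2 and Pank1 were also lost without the filter on low counts. With 3 libraries in each condition, single outlying values were not tested.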

How the results depend on the processing

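Without the threshold on the fold change, the number of the 7 genes called went from 2 to 4 for knockdown at 24 h, from 1 to 3 at 72 h, from 2 to 4 over time in siCtrl cells and from 2 to 4 for the difference between the knockdown effects. That of the other genes went from 2 to 5, from 6 to 16 and from 6 to 10 for knockdown at 24 h, at 72 h and their difference, and from 23 to 39 over time in siPRMT1 cells. With 1 library left out in turn, the 7 genes had between 1 and 3 calls at 24 h, fewest without the third siPRMT1 library, and between 2 and 4 for the difference, most without the third siCtrl library of 24 h, where Cth and Mpst were added. The other genes had between 1 and 4 and between 4 and 10, and 4 and 10 without that siCtrl library. For these fits and the alternative fits below, the share of all genes called is not given here. Their counts are therefore not read as a result about these genes. Directions turned in such fits for uncalled values of Mpst at 24 h (-0.16 to 0.16), Suox at 72 h (-0.013 to 0.088) and Suox over time in siPRMT1 cells (-0.00064 to 0.096). DESeq2, the fit without a filter and the replicate block each called Mpst for the difference, while the fit without a filter lost the calls of Slc3a2 and Pank1. For each gene, the deviation of log2 CPM from its group mean was taken. Between same-numbered libraries of compared groups these deviations correlated between -0.17 and 0.22, so the numbers were not taken to pair libraries. Under the replicate block the calls of the 7 genes were 2 at 24 h, 1 at 72 h and 3 for the difference. Scaled by TMM in place of library totals, values at 24 h shifted by -0.10 on the log2 scale, so the ratio of mean levels went from -0.96 to -1.06 for Cdo1 and from -0.42 to -0.51 for Slc6a6. Of all values and settings, 1171 stayed the same, 50 lost the call, 9 gained it, 7 reversed and 18 moved. A fold change stayed the same if it kept its direction and its call or lack of one. Of the 1171, 124 were counts of calls, which stayed the same within a set fold of the main count. Ratios of mean levels did so within the spread of the libraries. Depth limits Cbs, Mocos, Fmo1, Selenbp1 and Slc3a1, which have few counts, and the causes were not tested.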
